A study of Mus musculus with 8 samples.

Results

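The Reg genes encode small secreted proteins with a C-type lectin fold, which acinar cells of the pancreas and epithelial cells of the gut release. Reg1 encodes lithostathine, also named pancreatic stone protein, and Reg2 encodes its close relative. Reg3b encodes the pancreatitis-associated protein, Reg3g an antibacterial lectin of the intestinal surface, Reg3a another member of the same group, and Reg3d a protein related to the islet neogenesis-associated protein. In injured or inflamed pancreas, cytokines of the IL-6 and IL-22 families acting through STAT3 are known inducers of several members, and EXTL3 has been described as a receptor for Reg proteins.

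The 7 genes Reg1, Reg2, Reg3a, Reg3b, Reg3d, Reg3g and Reg4 were chosen by name, and 6 of them were among the 21434 genes with values, while Reg4 was not analysed here. All 6 passed the filter on low counts that left 12820 genes for the test. The values come from RNA-seq libraries of pancreatic tissue from 8 untreated C57BL/6N mice at 18 weeks of age. Homozygous carriers of the Bach2tm1b(EUCOMM)Wtsi allele, a constitutive knockout of the whole body (Bach2KO, n = 4), were set against wild type animals of that strain (Bach2WT, n = 4). Mice 1 and 2 of each genotype were females and mice 3 and 4 males, and the comparison asked how pancreatic gene expression differs without Bach2. The tissue was sequenced in bulk, so that fewer cells of a type and less RNA per cell cannot be told apart. The libraries held 72299745 to 166529247 counts on genes in Bach2KO mice and 81648148 to 172029360 in Bach2WT mice. Bach2 itself, the targeted gene, had 16, 3, 12 and 14 counts in Bach2KO mice 1 to 4 and 4, 4, 31 and 6 in Bach2WT mice 1 to 4, too few to check the labels.

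The 6 genes lie side by side on chromosome 6 (GRCm39), in the order Reg3b (78347640 to 78350449, plus strand), Reg3d (78352857 to 78355848, minus strand), Reg3a (78357692 to 78360810, plus strand), Reg2 (78372606 to 78385089, plus strand), Reg1 (78399694 to 78405650, plus strand) and Reg3g (78443252 to 78445855, minus strand). Their coding sequences in GENCODE M21 fell into groups by identity. Reg1 and Reg2 were identical at 78.7% of aligned positions, and Reg3a, Reg3b and Reg3g at 72.9% to 75.9%. Reg3d was identical to those 3 at 65.0% to 65.8%, and Reg1 to any Reg3 member at 55.3% to 59.0%. No stretch of 50 bases in the transcripts of Reg2, Reg3a, Reg3b, Reg3d or Reg3g was found in a transcript of another gene. In Reg1, 32 of 855 such stretches (3.74%) also occurred in transcripts of other genes, none of them a Reg gene.

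The promoters of these neighbours were compared because several members varied together among the mice, as described below. The sequences are those of RefSeq on GRCm38.p6, a build other than that of the gene positions above, and all 7 genes of the rule had an entry of 300 bases (250 before and 50 after the annotated start). The motif TATAAA, searched on both strands, lay 27 to 30 bases before the start in Reg1, Reg2, Reg3b and Reg3g and was present somewhere in 13.6% of all 32851 promoters. Reg1 and Reg3g held it once more on the opposite strand. The 4 stretches of 30 bases that end with this motif are printed in the direction of the gene, with the motif in capitals.
Reg1, chr6:78425929-78425958: gattttctattcagccctgatgtaTATAAA
Reg2, chr6:78405101-78405130: atccttatgccctaacctgttgcaTATAAA
Reg3b, chr6:78370832-78370861: cgatgtccctccctcaaattctgtTATAAA
Reg3g, chr6:78468896-78468925 (minus strand): tgatgcccctccctcaagtcctacTATAAA
Reg3g was identical to Reg3b at 24 of these 30 bases. The best ungapped match to the Reg3b stretch held 23 identical bases in the Reg3a promoter and 20 in that of Reg3d, against 16 in Reg2 and 14 in Reg1. The matches did not lie at the same position. They began 4 bases before the annotated start in Reg3a, where the match runs across it, and 31 in Reg3d, against 53 in Reg3b and 51 in Reg3g. A match with at least 20 identical bases was present in 29 of the 32851 promoters (0.0883%), and one with at least 23 only in those of Reg3a, Reg3b and Reg3g.

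Motifs of 2 groups of transcription factors were searched on both strands as well. The STAT motif TTCNNNGAA was present in Reg3b and Reg3d, in 8.3% of all promoters, and not in the window of Reg1, Reg2, Reg3a or Reg3g. The motif TGANTCA, the core that AP-1 and the Maf recognition elements bound by Bach proteins share, was present in Reg1 alone among the members and in 7.81% of all promoters. The matches are shown with 30 bases each and the motif in capitals, and a match is a description of letters and not of binding. For TGANTCA only the shared core was searched. The match in Reg1 therefore does not tell an AP-1 motif and a Maf recognition element apart. The label of its stretch refers to this shared core, and the bases around it were not compared with a full Maf recognition element.
Reg3b, chr6:78370746-78370775, STAT motif: agcctgttctTTCTTGGAAactctttgagt
Reg3d, chr6:78379084-78379113 (minus strand), STAT motif: ttacttaagtTTCCCAGAAtctgacacctg
Reg1, chr6:78425855-78425884, core of the Maf recognition element: gccaggttttgTGAGTCAgggacccatgca

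In all 8 pancreata, Reg transcripts were abundant. Levels are given as the deposited FPKM, counts corrected for library size and divided by the gene length. Ranked by mean FPKM over the genotype, Reg1 was 19th of 21434 genes in Bach2KO and 20th in Bach2WT mice. It had 5041 ± 1124 FPKM in Bach2KO and 4025 ± 1839 FPKM in Bach2WT mice (SD, n = 4 each). For reference among acinar enzymes, the values in Bach2KO and Bach2WT mice were 48295 ± 4519 and 72886 ± 15127 FPKM for Prss2 (a trypsinogen), 30815 ± 1980 and 45355 ± 5999 FPKM for Cpa1 (a carboxypeptidase), 30045 ± 3511 and 33466 ± 2353 FPKM for Pnlip (pancreatic lipase) and 54.3 ± 10.4 and 54.2 ± 6.20 FPKM for Amy2a5, an amylase gene with close copies. Of all counts in a library, the 6 Reg genes took 0.688%, 0.739%, 0.837% and 1.18% in Bach2KO mice 1 to 4 and 0.273%, 0.553%, 0.195% and 0.508% in Bach2WT mice 1 to 4. These shares of the raw totals did not overlap between the genotypes, and no test was made of the sum. They leave out the normalization factors of the edgeR fit. Those were 1.18, 1.07, 1.05 and 1.16 in Bach2KO mice 1 to 4 and 1.10, 0.858, 0.835 and 0.826 in Bach2WT mice 1 to 4. In FPKM, each of the 6 genes was lower in Bach2KO mouse 1 than in Bach2WT mouse 2. The absence of overlap thus held for shares of raw totals and not for the normalized level of the 6 genes together. Without Reg1, the shares of the other 5 genes were 0.0623%, 0.202%, 0.276% and 0.820% against 0.0128%, 0.0727%, 0.0120% and 0.128%, which overlapped.

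By the mean of log2 FPKM over the 8 mice, the order of levels was Reg1, Reg2, Reg3d, Reg3b, Reg3a and Reg3g. Reg1 was above Reg2 in 7 of 8 mice, the exception being Bach2KO mouse 4 (mean difference 3.46 ± 2.53 on the log2 FPKM scale, SD; two-sided exact sign-flip permutation test, p = 0.0156, adjusted p = 0.0260 over 5 pairs of neighbours). Reg2 and Reg3d did not differ beyond their spread (Reg2 higher in 4 of 8 mice, exact permutation p = 0.352), nor did Reg3d and Reg3b (Reg3d higher in 6 of 8 mice, exact permutation p = 0.164). Reg3b was above Reg3a and Reg3a above Reg3g in 8 of 8 mice each (exact permutation p = 0.00781, the smallest possible; adjusted p = 0.0195). The FPKM of Reg3g was divided by a gene length of 2114 bases, although its coding transcript in GENCODE M21 has 771 bases, a ratio of 2.74. For Reg3b the ratio was 1.46, for Reg2 1.36 and for the other 3 members 1. Per length of the coding transcript, the mean of Reg3g would be 47.2 in Bach2KO and 6.71 in Bach2WT mice and stay below that of Reg3a (172.2 and 32.3). The mean of Reg3b would be 634 and 154, above that of Reg3d in Bach2KO and below it in Bach2WT mice (294 and 219). By deposited FPKM, the mean of Reg3b was 434 in Bach2KO and 105 in Bach2WT mice, so that the order of these means was the same with either length. Ratios of FPKM between members, here and below, are not corrected for the length.

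**Figure D1:**
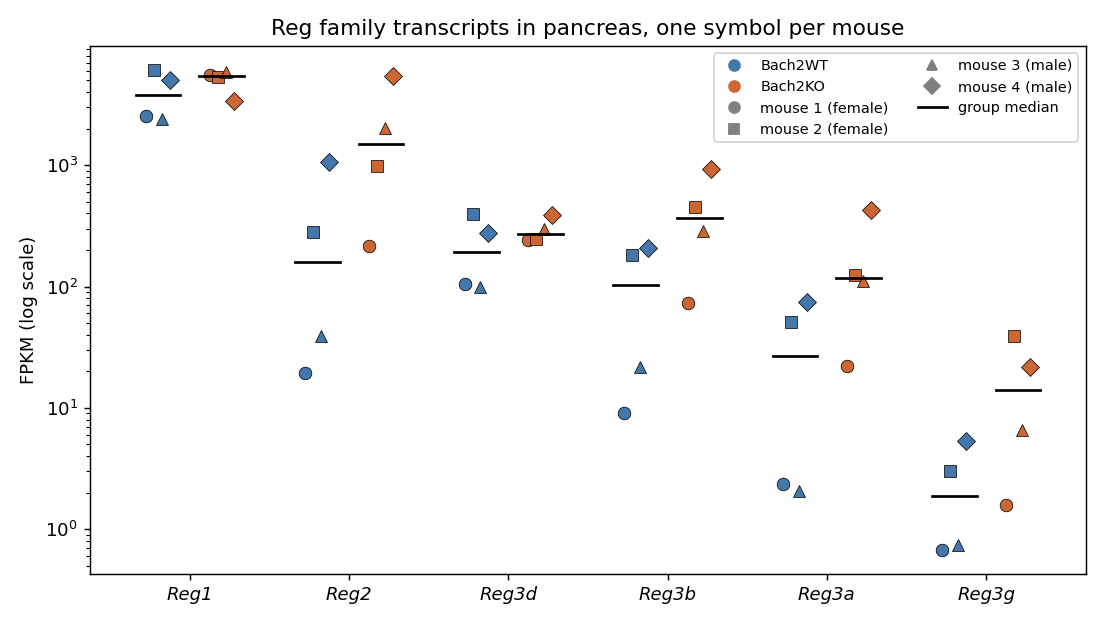
FPKM (log scale) of the 6 Reg genes, with 1 symbol per mouse, blue for Bach2WT and orange for Bach2KO, and a bar at the median of 4 mice. Reg1 spans 2403 to 6099 FPKM over all 8 mice, while Reg2 spans 19.3 to 5410 FPKM, with Bach2WT mice 1 and 3 at the bottom of every gene.

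Reg1 and Reg3d varied least among the mice. Reg1 had 5587, 5362, 5833 and 3380 FPKM in Bach2KO mice 1 to 4 and 2551, 6099, 2403 and 5048 FPKM in Bach2WT mice 1 to 4. The highest value of all belonged to Bach2WT mouse 2, and only Bach2WT mice 1 and 3 lay below every Bach2KO mouse. In edgeR's quasi-likelihood test, Reg1 was 1.28-fold higher in Bach2KO mice (log2 fold change 0.35, standard error 0.29, 95% interval −0.27 to 0.98, adjusted p = 0.857). For Reg3d, 243, 247, 298 and 388 FPKM in Bach2KO mice stood against 104, 395, 98.9 and 277 FPKM in Bach2WT mice. The groups overlapped in the same manner as for Reg1, with Bach2WT mice 1 and 3 below every Bach2KO mouse, mouse 4 among them and mouse 2 above them. The log2 fold change of Reg3d was 0.45 (standard error 0.37, 95% interval −0.36 to 1.26, adjusted p = 0.857 in edgeR).

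Reg2, whose product is the close relative of Reg1, covered the widest range. It had 218, 984, 2023 and 5410 FPKM in Bach2KO mice 1 to 4 and 19.3, 280, 39.2 and 1056 FPKM in Bach2WT mice 1 to 4. In Bach2KO mouse 4 its FPKM exceeded that of Reg1 1.60-fold, whereas in Bach2WT mouse 1 it was 0.00756 of the Reg1 level. Bach2KO mice 3 and 4 lay above every Bach2WT mouse, and Bach2KO mouse 1 lay below Bach2WT mice 2 and 4. The fitted difference was 6.28-fold (log2 fold change 2.65, standard error 1.08, 95% interval 0.33 to 4.97), with an unadjusted p of 0.0283 and an adjusted p of 0.636 in edgeR.

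Reg3b, the pancreatitis-associated protein, had 73.6, 449, 289 and 927 FPKM in Bach2KO mice 1 to 4 and 9.05, 184, 21.8 and 207 FPKM in Bach2WT mice 1 to 4. Bach2KO mice 2, 3 and 4 were above all Bach2WT mice, and Bach2KO mouse 1 lay between the Bach2WT mice. Its fitted difference was 4.19-fold (log2 fold change 2.07, standard error 0.85, 95% interval 0.22 to 3.91; edgeR unadjusted p = 0.0308, adjusted p = 0.641). Reg3a showed the same order of groups, with 22.1, 124, 111 and 431 FPKM in Bach2KO mice and 2.35, 51.0, 2.05 and 74.0 FPKM in Bach2WT mice. Again Bach2KO mouse 1 alone lay within the range of the Bach2WT mice, and the difference was 5.40-fold (log2 fold change 2.43, standard error 1.03, 95% interval 0.22 to 4.65; edgeR unadjusted p = 0.0339, adjusted p = 0.643).

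Reg3g, the antibacterial lectin, was the least abundant member, with 1.57, 39.0, 6.61 and 21.7 FPKM in Bach2KO mice 1 to 4 and 0.678, 3.02, 0.734 and 5.36 FPKM in Bach2WT mice 1 to 4. These values rest on 566 to 9050 counts in Bach2KO and 132 to 850 counts in Bach2WT libraries. Bach2KO mice 2, 3 and 4 again exceeded all Bach2WT mice, here with mouse 2 and not mouse 4 at the top. Reg3g was 7.18-fold higher in the fit, the largest ratio of the 6 genes (log2 fold change 2.84, standard error 0.84, 95% interval 1.04 to 4.65), and the smallest unadjusted p (0.00469, rank 114 of 12820 genes). Its adjusted p was 0.513 in edgeR.

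Thus 0 of the 6 members differed between the genotypes at a Benjamini-Hochberg adjusted p under 0.05 in edgeR, where 0.00780% of all genes tested did (1 of 12820). At an unadjusted p under 0.05, 4 of the 6 members were higher in Bach2KO mice (Reg2, Reg3a, Reg3b and Reg3g) and 0 lower, against 3.90% of all genes tested that were higher and 7.46% that differed in either direction. DESeq2 gave an adjusted p of 0.275 for Reg3g and 0.514 to 0.871 for the others, so that it also called 0 members, and an unadjusted p under 0.05 for 2 of them (Reg2 and Reg3g). A fit without the filter on low counts called 1 member, Reg3g (log2 fold change 2.85, edgeR adjusted p = 0.00885), and 73 of 21434 genes in all. The call of Reg3g thus depends on the filter. In the test for sex, the same setting gave Reg2 an edgeR adjusted p of 1.53e-32, against 0.890 with the filter, and the cause was not tested. Values without overlap between the genotypes, seen in Bach2KO above Bach2WT for 2.57% of all genes, were seen for 0 members. All 6 log2 fold changes were above 0, as were those of 54.7% of all genes, and 4 of the 6 were 2 or more, as were those of 0.928% of all genes. Their median was 2.25, beside 0.048 over all genes tested.

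**Figure D2:**
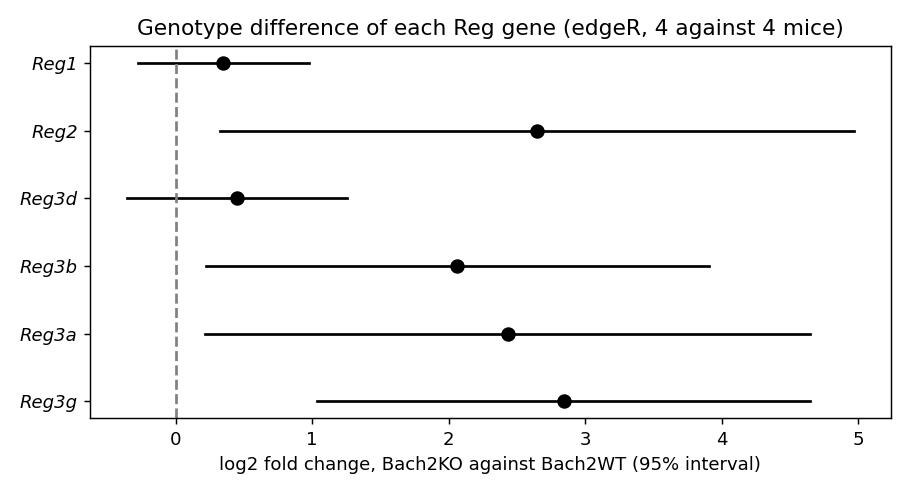
Log2 fold change of each Reg gene in Bach2KO against Bach2WT mice (points) with its 95% interval (lines) from edgeR, 4 mice per genotype. The intervals of Reg2, Reg3a, Reg3b and Reg3g lie above 0 before adjustment for all genes tested, and those of Reg1 and Reg3d include 0.

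The spread within a genotype exceeded that of nearly all other genes for 4 members. The standard deviation of log2 CPM within genotypes was 2.31 for Reg2 and for Reg3a, 1.92 for Reg3b and 1.78 for Reg3g, higher than in 99.7%, 99.7%, 98.8% and 97.8% of the genes tested, whose median was 0.50. For Reg1 it was 0.55 (above 55.3% of genes) and for Reg3d 0.74 (above 70.6%). Among the Bach2WT mice alone, the highest FPKM was 54.7 times the lowest for Reg2, 36.1 times for Reg3a, 22.8 times for Reg3b, 7.91 times for Reg3g, 4.0 times for Reg3d and 2.54 times for Reg1. Among the Bach2KO mice, the ratio was 24.8 for Reg2 and Reg3g, 19.5 for Reg3a and 12.6 for Reg3b, but 1.73 for Reg1 and 1.60 for Reg3d.

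Single mice therefore moved the fold changes, though not their sign. When 1 of the 8 mice was left out at a time, the log2 fold change of Reg2 ranged from 1.64 without Bach2KO mouse 4 to 4.27 without Bach2WT mouse 4, with unadjusted p between 0.00254 and 0.138 in edgeR. For Reg3a the range was 1.43 to 3.23 and for Reg3b 1.39 to 2.62, with the extremes on leaving out the same mice. Reg3g ranged from 2.05 without Bach2KO mouse 2 to 3.56 without Bach2WT mouse 4, with unadjusted p between 0.000338 and 0.0215 in edgeR. Reg1 ranged from 0.17 without Bach2WT mouse 3 to 0.63 without Bach2WT mouse 2, and Reg3d from 0.21 to 0.90 on leaving out the same mice. The number of members with an unadjusted edgeR p under 0.05 was 1 without Bach2KO mouse 4 or without Bach2WT mouse 3 (Reg3g in both), 3 without Bach2WT mouse 1 and 4 or 5 without any of the others. Without Bach2WT mouse 2 these included Reg1 and Reg3d but not Reg2. Reg3g was among them in each of the 8 fits.

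The mice that were high for one of the 4 variable members were high for the others. Over the 8 mice, log2 CPM of Reg3a and Reg3b had a Pearson's r of 0.98 (Spearman's rho 0.98; exact permutation p = 1.24e-04 and 3.97e-04). Reg2 had an r of 0.97 with Reg3a and with Reg3b (exact permutation p = 2.48e-04 and 1.98e-04; rho 0.90 and 0.93). The adjusted p of these 3 values of r was 0.00124 over the 15 pairs of members. Reg3g had an r of 0.92 with Reg3b, 0.90 with Reg3a and 0.87 with Reg2 (adjusted exact permutation p = 0.00586, 0.0106 and 0.0149), and a rho of 0.98, 0.95 and 0.86. Without Bach2WT mice 1 and 3, the 2 mice farthest from the median, r among these 4 genes was 0.71 to 0.99. With values centred on the genotype means, r among them was 0.79 to 0.97 (adjusted exact permutation p = 0.00732 to 0.0478). The centred values were permuted across all 8 mice and not within each genotype. Centring leaves fewer free values than mice, so p-values of centred values, here and below, can be too small. The values of r describe joint variation within the genotypes in these mice. By rank, the centred values of Reg3g did not pass with Reg2 or Reg3a (rho 0.74 each, adjusted exact permutation p = 0.0688). The members share a locus, a library and its size factor.

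The relations of Reg1 and Reg3d were examined in the same way. Reg1 had an r of 0.47 to 0.63 with Reg2, Reg3a, Reg3b and Reg3g, none past an adjusted exact permutation p of 0.05 (0.121 to 0.231), and without Bach2WT mice 1 and 3 these values turned to −0.80 to −0.53. As measured, the positive relation thus rested on 2 mice. Centred on the genotype means, r of Reg1 with these 4 genes was 0.29 to 0.52 (adjusted exact permutation p = 0.235 to 0.472), and 0.42 to 0.81 without Bach2KO mouse 4 and Bach2WT mouse 3, the 2 mice farthest from the median there. For Reg1 and Reg3d, r was 0.77 (adjusted exact permutation p = 0.0370), and −0.42 without Bach2WT mice 1 and 3. Centred, it was 0.72 (adjusted exact permutation p = 0.0705), and 0.94 without Bach2KO mouse 4 and Bach2WT mouse 3. Reg3d had an r of 0.85 to 0.91 with Reg2, Reg3a and Reg3b (adjusted exact permutation p = 0.0153 to 0.0182), and 0.29 to 0.45 without Bach2WT mice 1 and 3. By rank, Reg3d passed with none of the members (rho 0.48 to 0.69, adjusted exact permutation p = 0.130 to 0.331). Centred on the genotype means, it had an r of 0.81 to 0.90 with Reg2, Reg3a and Reg3b (adjusted exact permutation p = 0.0140 to 0.0363), and a rho of 0.81 to 0.90 (adjusted exact permutation p = 0.0228 to 0.0467).

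**Figure D3:**
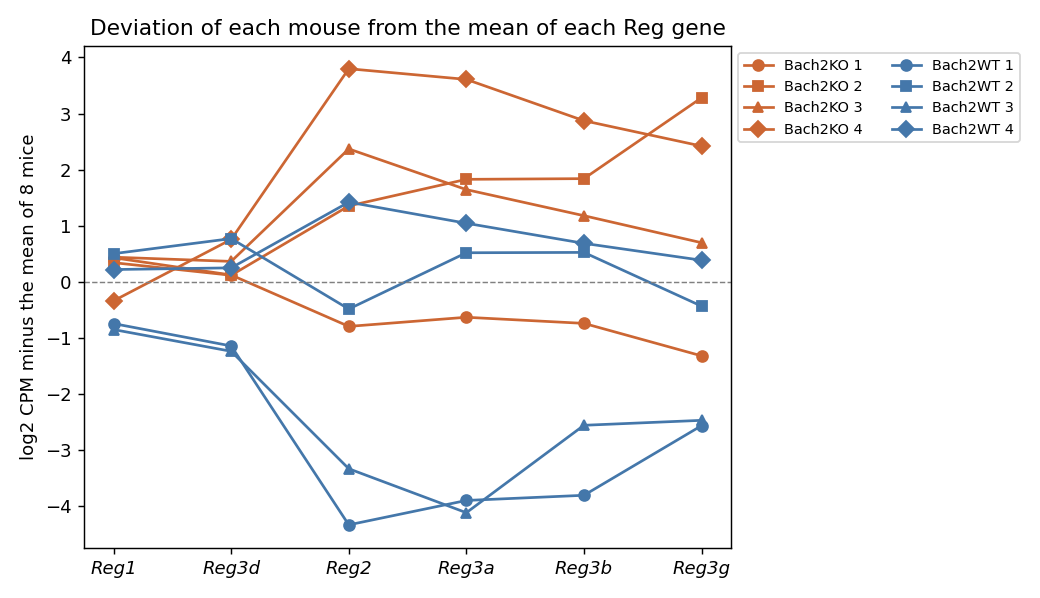
Log2 CPM of each mouse minus the mean of the 8 mice, for each Reg gene, with blue lines for Bach2WT and orange lines for Bach2KO mice (lines join the values of 1 mouse and imply no order of genes). Bach2WT mice 1 and 3 run lowest across Reg2, Reg3a, Reg3b and Reg3g, Bach2KO mouse 4 highest in Reg2, Reg3a and Reg3b, and Bach2KO mouse 1 below Bach2WT mice 2 and 4.

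**Figure D4:**
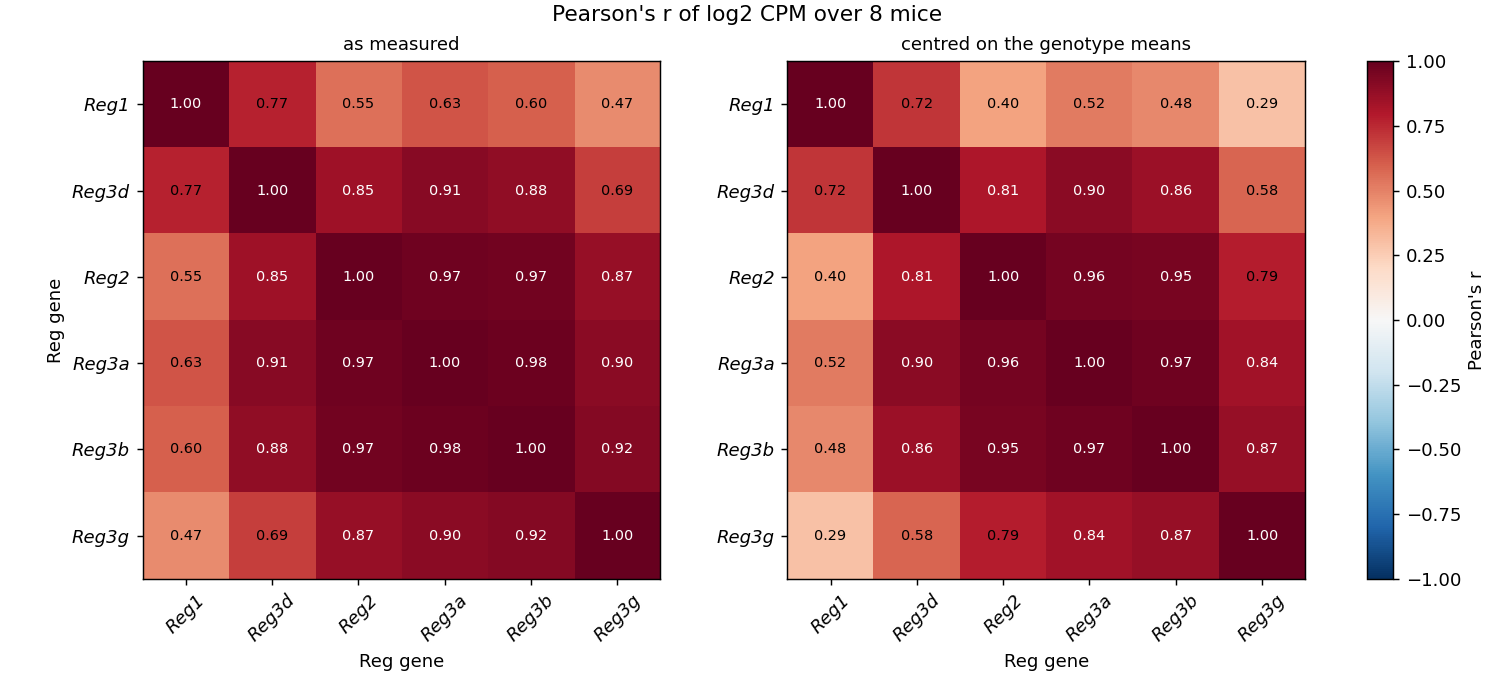
Pearson's r of log2 CPM over 8 mice for each pair of Reg genes, as measured (left) and with values centred on the genotype means (right), from blue (−1) to red (1). The 3 pairs among Reg2, Reg3a and Reg3b hold the highest values in both panels (0.97 to 0.98 and 0.95 to 0.97), and Reg1 with Reg3g the lowest (0.47 and 0.29).

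The members also differed in their ratios to each other. The FPKM of Reg3b was 1.32%, 8.37%, 4.95% and 27.4% of that of Reg1 in Bach2KO mice 1 to 4 and 0.355%, 3.01%, 0.907% and 4.09% in Bach2WT mice 1 to 4. Reg2 was 2.96, 2.19, 7.01 and 5.84 times Reg3b in Bach2KO mice and 2.13, 1.53, 1.80 and 5.11 times in Bach2WT mice. The 3 highest of these 8 ratios belonged to males, Bach2KO mice 3 and 4 and Bach2WT mouse 4, while the fourth male, Bach2WT mouse 3, lay among the females. Reg3b was 2.15 to 3.84 times Reg3a in 7 mice and 10.6 times in Bach2WT mouse 3.

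Sex was tested with genotype in the model. Reg2 was lower in females than in males by an unadjusted p of 0.0279 (log2 difference −2.23, standard error 0.90, adjusted p = 0.890 in edgeR), with mean values of 601 and 3716 FPKM in Bach2KO females and males and 150 and 548 FPKM in Bach2WT females and males. The other 5 members had log2 differences of −1.18 to 0.26 between the sexes (edgeR adjusted p = 0.906 to 0.995). At an adjusted p under 0.05, 0 of the 6 members differed between the sexes, against 0.0312% of all genes, and at an unadjusted p under 0.05, 1 did, against 5.29%. The effect of genotype differed between the sexes for 0 members and 0% of all genes at an adjusted p under 0.05 (edgeR adjusted p = 0.925 to 1.00 for the members), and at an unadjusted p under 0.05 for 0 members and 6.14% of all genes. With 2 mice per sex and genotype, the intervals were wide, from −2.32 to 4.77 for Reg3g and from −4.55 to 3.05 for Reg2 on the log2 scale. In females, Reg3g had a log2 fold change of 3.47 (95% interval 0.73 to 6.21, edgeR adjusted p = 0.556) and in males of 2.25 (−0.36 to 4.86, edgeR adjusted p = 0.852). The values in females and males were 2.03 and 2.78 for Reg2, 1.48 and 2.86 for Reg3a, 1.47 and 2.43 for Reg3b, 0.01 and 0.88 for Reg3d, and 0.38 and 0.32 for Reg1.

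Markers of the cell types that could contribute were read beside the Reg genes. Acinar genes were tested for 24 of 24 markers, with a median log2 fold change of −0.31 and 18 of 24 below 0 (8 lower and 1 higher at an unadjusted p under 0.05 in edgeR, against 3.56% and 3.90% of all genes, and 0 at an adjusted one), and their summed level was 497356 to 602169 FPKM in Bach2KO and 543395 to 779144 FPKM in Bach2WT mice. For gut, where Reg3b and Reg3g are also made, 5 of 13 intestinal markers had values, with a summed level of 0.157 to 0.411 FPKM in Bach2KO and 0.0403 to 0.653 FPKM in Bach2WT mice. Of 6 stomach markers, 3 had values, which summed to at most 0.202 FPKM. For islets, 10 of 10 markers were tested (median log2 fold change 0.27), with 482, 336, 1620 and 181 FPKM in Bach2KO mice 1 to 4 and 275, 413, 148 and 1892 FPKM in Bach2WT mice 1 to 4. Among Bach2KO mice, mouse 4 was the highest for Reg2 and the lowest in islet markers, while among Bach2WT mice, mouse 4 was the highest in both and mice 1 and 3 were the lowest in both. For neutrophils, 5 of 6 markers had values and 0 were tested. They summed to 0.761, 1.80, 0.973 and 0.133 FPKM in Bach2KO mice 1 to 4 and to at most 0.0759 FPKM in Bach2WT mice. The sums did not overlap, beside 2.57% of single genes tested without overlap in this direction. They rest on at most 60 counts per gene and library. S100a8 and S100a9 were at 0 in all Bach2WT libraries, and Elane was at 0 in all Bach2KO libraries. Macrophage markers (7 of 7 tested) summed to 11.6 to 20.05 and 10.3 to 22.4 FPKM, and T cell markers (5 of 7 tested) to 0.298 to 1.16 and 0.0576 to 0.696 FPKM. Duct markers (6 of 7 tested) summed to 33.5 to 54.9 and 42.9 to 64.0 FPKM, B cell markers (2 of 4 tested) to 0.0182 to 0.969 and 0.219 to 1.93 FPKM, eosinophil markers (3 of 5 with values, 0 tested) to at most 0.180 and 0.0259 FPKM, and adipocyte markers (3 of 5 tested) to 0.480 to 1.60 and 0.214 to 4.0 FPKM. The part of these cells in the values of the Reg genes, and of the gene lists below, was not tested.

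The genes around the Reg pathway were then taken from 6 lists by role. Of 10 cytokine genes of the IL-6, IL-10, IL-17 and IL-1 families and others, 6 had values and 0 passed the filter. Il6 had 0 to 12 counts per library, Il11 0 to 6, Osm 0 to 4, Lif 0 to 10, Tnf 0 to 8 and Il1b 0 to 37, and none of these ligands was tested for a difference. Il22, Il17a, Il17f and Ifng had no values here. Of 12 receptor genes, 11 were tested, with a median log2 fold change of 0.08. Extl3 had 3.81 ± 0.83 FPKM in Bach2KO and 4.09 ± 0.55 FPKM in Bach2WT mice (log2 fold change −0.08, standard error 0.18). Il6st, the signalling chain shared by receptors of the IL-6 family, had 0.406 ± 0.115 and 0.425 ± 0.143 FPKM. Il22ra1, the specific chain of the IL-22 receptor, had 1.22 ± 1.19 and 0.589 ± 0.175 FPKM (edgeR adjusted p = 0.683), and Il10rb, its partner chain, a log2 fold change of 0.59. Lifr had one of 0.56. Il6ra, which binds IL-6, had 0.188 ± 0.0849 and 0.105 ± 0.00846 FPKM without overlap (log2 fold change 0.88, edgeR unadjusted p = 0.0183).

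Among 10 signal transducers and transcription factors, all tested, 8 had log2 fold changes above 0, with a median of 0.72 against 0.048 for all genes. Stat3 had 0.771 ± 0.344 FPKM in Bach2KO and 0.603 ± 0.207 FPKM in Bach2WT mice (log2 fold change 0.39), and Socs3, the feedback inhibitor that STAT3 induces, 0.378 ± 0.0815 and 0.281 ± 0.151 FPKM. At an unadjusted p under 0.05 in edgeR, 2 genes of this list were higher in Bach2KO mice and 0 lower, against 3.90% and 3.56% of all genes. Nfkbiz had a log2 fold change of 0.98 (edgeR adjusted p = 0.663), Bcl3 one of 1.39 and Cebpb one of 1.07 (edgeR adjusted p = 0.670 each). Of 14 acute-phase and other genes known as STAT3 targets, 8 were tested and had a median of 0.71, with 3 higher and 1 lower in Bach2KO mice at an unadjusted p under 0.05 in edgeR, against 3.90% and 3.56% of all genes. Lrg1, a secreted glycoprotein of the acute phase, had 2.67 ± 2.10 and 0.515 ± 0.102 FPKM (log2 fold change 2.40), Lcn2, which sequesters bacterial siderophores, 0.318 ± 0.202 and 0.0612 ± 0.0326 FPKM (2.37), and Junb 1.66 ± 1.75 and 0.360 ± 0.162 FPKM (2.23). Hp, the haemoglobin-binding haptoglobin, went the other way with 0.197 ± 0.192 and 0.731 ± 0.568 FPKM (−1.84).

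Of 12 other secreted or epithelial genes of antimicrobial defence, 7 were tested, with a median log2 fold change of 2.11. At an unadjusted p under 0.05, 6 of these 7 were higher in Bach2KO mice, against 3.90% of all genes. The log2 fold change and its standard error were 2.95 and 0.63 for Lyz1, a lysozyme with the paralog Lyz2, and 1.15 and 0.35 for Lyz2. They were 2.11 and 0.43 for Lgals3, a galectin, and 1.11 and 0.27 for Pigr, the receptor that carries IgA across epithelia. The seventh gene, Dmbt1, was by far the most abundant of the list, at 658 and 828 FPKM in Bach2KO and Bach2WT mice (log2 fold change −0.31). Of 15 genes of acinar injury and dedifferentiation, 14 were tested, with a median of 0.07. Nupr1, a stress-induced chromatin protein, had 103 ± 14.7 FPKM in Bach2KO and 51.5 ± 13.7 FPKM in Bach2WT mice without overlap (log2 fold change 1.03, standard error 0.20, edgeR adjusted p = 0.266). Krt7, a keratin of duct cells, had a log2 fold change of 0.57, Anxa2 one of 0.43 and Tff2, a trefoil peptide at 3666 ± 1094 and 5904 ± 968 FPKM, one of −0.67. Over the 6 lists, 0 genes passed an adjusted p of 0.05 in edgeR, and DESeq2 called 5 (Lrg1, Lyz1, Lgals3, Pigr and Nupr1), each higher in Bach2KO mice.

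Beyond the members, the genes whose log2 CPM ran closest to Reg3b over the 8 mice included Enpp1 (r = 0.96) and E030044B06Rik (0.96), at mean levels of 0.151 and 0.116 FPKM. For Reg1 they included Erdr1 (r = 0.98) and Cryba2 (0.95), at 0.136 and 0.0910 FPKM. Each was among the 3 highest of all genes tested and was picked as such over 8 mice, where the median r was −0.01 with Reg3b and −0.02 with Reg1, and all 4 were expressed at a small fraction of the level of the Reg genes.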

How the data were processed

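Pancreatic RNA was purified for poly(A) mRNA and sequenced by a provider as paired-end reads. The submitters' processing notes name fastp, HISAT2 2.2.1, featureCounts 2.0.6 and mm39 (GRCm39), without their settings. The deposited table holds raw counts per gene and library, a normalized signal that the authors made by dividing counts by 1 size factor per library (not used here), and FPKM values that the authors made from that signal and the gene length. It also holds the authors' fold changes and p-values, which were not used. Whether counting used strand is not given in the sources used here. All 8 libraries were matched by library name.

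Counts were fitted with edgeR 4.0.16 (quasi-likelihood, TMM, filterByExpr, genotype only), with Benjamini-Hochberg adjustment over 12820 genes and a threshold of 0.05. A prior count of 2 entered log2 CPM. Standard errors were taken as the log2 fold change over the root of F, without its sign. The procedure was tested on simulated counts. Pairs of members and of neighbouring levels were tested by exact permutation, two-sided (SciPy 1.17.1), and coding sequences were aligned with Biopython 1.88. The alternatives comprised DESeq2 1.42.0, normalization by RLE, totals that omit acinar and Reg genes, other filters (none, or 10 counts in every mouse), sex or replicate number in the model, counts divided by 2, limma 3.58.1 on log2(FPKM + 1) and leaving out each mouse. Named genes are all members, the 4 genes of each list with the smallest p, Extl3, Il6st, Stat3, Il22ra1 and Socs3, acinar references, and the 3 genes most like Reg1 and Reg3b, of which some are not reported here. The cytokines, Dmbt1 and the markers at 0 were added after their values were seen. Members and lists were chosen with earlier results of these data known. Mice are separate animals, and p-values measure the spread between them.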

Additional observations from a re-analysis of the deposited data

How the results depend on the processing

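The log2 fold change of each of the 6 members stayed above 0 in all 17 alternatives, from 1.64 to 4.27 for Reg2, 1.43 to 3.23 for Reg3a, 1.39 to 2.62 for Reg3b, 1.97 to 3.56 for Reg3g, 0.17 to 0.63 for Reg1 and 0.21 to 0.90 for Reg3d. The number of members past the adjusted threshold was 0 in the edgeR fit and moved to 1 without the filter on low counts (Reg3g) and to 4 with the unadjusted p. Without that filter, 3 members passed in the test for sex (Reg2, Reg3a and Reg3b) and 1 in that for sex by genotype (Reg3a), against 0 with it. For sex, Reg2 had an edgeR adjusted p of 1.53e-32 without the filter and 0.890 with it, at a log2 difference of −2.23 in both. The cause was not tested, and these calls are not read as differences between the sexes. The share of all genes called for sex without the filter is not given here, so that these counts of members have no background. DESeq2 called 5 genes of the pathway lists against 0 in edgeR. Over all genes, edgeR called 1, DESeq2 80 and edgeR without the filter 73. With the replicate number as a block, 0 members were called (edgeR adjusted p = 0.150 for Reg3b and Reg3g). Same-numbered mice also share their sex, so that this block takes in sex. The deviations of same-numbered mice correlated at 0.21, −0.03, −0.04 and −0.05, and only mouse 1 correlated best with its own number. Whether these mice share anything else is not known. Without Bach2KO mouse 3, the log2 fold change was 2.66 for Reg2 and 3.09 for Reg3g. Leaving out single mice gave 0 members in every fit. The number of pairs of members that vary together was 10 of 15, and 9 of 15 after centring on the genotype means, where the p-values can be too small. Each member rests on at least 132 counts in every library, and each genotype on 4 mice.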
